A study of Mus musculus with 12 samples.

Results

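Untreated bone-marrow-derived macrophages (BMDMs) that lack *Keap1* in the myeloid lineage were compared with untreated WT BMDMs, which gave 4 arrays of the 12 in the series, 2 of each genotype. The arrays were chosen by their labels as the untreated Keap1 CKO and WT BMDMs (Con) and not by a measured value, though earlier results of these data were known. The other 8 arrays held cells of the same mice after 6 h with LPS and IFNγ (M1) or with IL-4 (M2), 2 arrays for each genotype and stimulus. RNA was labelled with 1 dye and read on Agilent mouse arrays, which carry 41174 probes apart from control spots.

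The KpCKO mice were *Keap1* flox/flox::LysM-Cre animals, which carry Cre in the lysozyme M locus and so delete *Keap1* in macrophages, neutrophils and other myeloid cells. The controls are labelled only as WT, and whether any carried Cre or a floxed allele is not given in the sources used here. So the Cre, the altered lysozyme M locus, the floxed allele, which by itself serves as a *Keap1* knockdown, and the deletion of *Keap1* cannot be told apart in these groups. Mice were 8 weeks old and of the C57BL/6 strain in the labels, given as C57BL6/J in the methods. Bone marrow cells were grown for 7 days with M-CSF, which was withdrawn some hours before the stimuli, and the Con cells received no stimulus. Each of the 2 cultures paired a WT with a KpCKO mouse. Culture 1 came from males and culture 2 from females, so that sex and culture cannot be told apart. The question of the comparison was which genes differ in macrophages without *Keap1* before any stimulus is given.

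Keap1 is the adaptor of a Cul3 ubiquitin ligase that binds the transcription factor Nrf2, the product of *Nfe2l2*, and sends it to the proteasome. Oxidants and electrophiles modify cysteines of Keap1, Nrf2 then escapes degradation, pairs with small Maf proteins and binds antioxidant response elements in genes for glutathione synthesis, thioredoxin reduction, NADPH supply, drug metabolism and heme breakdown. Nrf2 is also known for its part in limiting inflammation, in which macrophages are a main source of cytokines.

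All 4 Con arrays lay on 1 slide with 1 scan, and their 75th percentile of signal was between 1001 and 1143 intensity units. Between 67.8% and 71.5% of the probes were well above background, and the arrays correlated with each other at r between 0.983 and 0.992 across genes. Sex-linked transcripts matched the label on 4 of 4 arrays. A level below is the log2 intensity of the gene's brightest probe less the 75th percentile of its array, and a difference is KpCKO less WT on that scale. Levels of different genes are not compared, since each probe binds with its own strength. The p-values came from limma with the culture as a block and were adjusted by Benjamini-Hochberg over all genes tested. They rest on the spread left after group and culture were fitted, estimated over the 12 arrays. These arrays came from 4 mice, and the fit treated arrays of the same mouse as independent, so this spread is not that between mice alone.

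*Keap1* itself stood at 3.26 and 3.16 on the WT arrays of cultures 1 and 2, and at 1.79 and 1.71 on the KpCKO arrays. Both KpCKO arrays lay below both WT arrays, but the transcript stayed above background. The difference was −1.46 (SE 0.24, n = 2 mice per genotype), a 2.74-fold fall (limma, adjusted p = 0.0334). Whether the probe lies inside the floxed exons was not given in the sources used here, so the remaining signal cannot be read as remaining cells or as a shortened transcript. The fall was −1.71 among the M1 arrays (adjusted p = 0.00769) and −1.81 among the M2 arrays (adjusted p = 0.0161). Without 1 of the Con arrays the difference lay between −1.38 and −1.53 and missed the threshold each time, with an adjusted p of 0.224 without WT 1, 0.166 without WT 2, 0.184 without KpCKO 1 and 0.175 without KpCKO 2.

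The other 10 measured genes of the Keap1-Nrf2 control circuit did not pass the test. *Nfe2l2* transcript, which encodes Nrf2 and does not report the amount of the protein, read 5.30 and 5.46 in WT and 4.82 and 4.98 in KpCKO, a difference of −0.48 (adjusted p = 0.240). *Cul3*, the scaffold of the ligase, differed by −0.06 and *Bach1*, a repressor at the same elements, by −0.05. *Mafg*, a small Maf partner of Nrf2, differed by 0.47 (adjusted p = 0.207), and *Sqstm1*, the autophagy adaptor p62 that binds Keap1, by 0.49 (adjusted p = 0.340). *Lyz2*, the locus that carries the Cre, read 7.02 and 6.98 in WT and 5.94 and 6.15 in KpCKO. The groups did not overlap, and the difference of −0.95 (SE 0.27) did not pass (adjusted p = 0.167). None of the 23 measured neighbours of *Keap1* and none of the 12 of *Lyz2* was called. Of all genes tested 2.22% were called, a share at which lists of this size can hold no call. The median differences of the neighbours were −0.02 and 0.14.

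Across 22357 genes tested, 312 were higher in KpCKO Con, which is 1.4%, and 185 were lower, which is 0.827%. At an unadjusted p under 0.05, 3154 genes passed. Among the higher genes the median difference was 1.42 (1.39 with genes not above background in WT at their bound), with 235 above 2-fold and 86 above 4-fold. Among the lower genes the median was −1.21, also with such genes at their bound, with 119 above 2-fold and 31 above 4-fold. The median over all genes tested was 0.00. Both KpCKO arrays lay above both WT arrays for 311 of the 312 higher genes, with *Flt3l* as the exception, and below them for 184 of the 185 lower genes, with *Ahrr* as the exception. Genes called on these arrays had to be nearly free of overlap, and of all genes tested 19.3% lay without overlap in the higher direction and 17.7% in the lower direction. A probe was not well above background on either WT array for 27 of the higher genes, and on either KpCKO array for 9 of the lower genes.

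**Figure D1:**
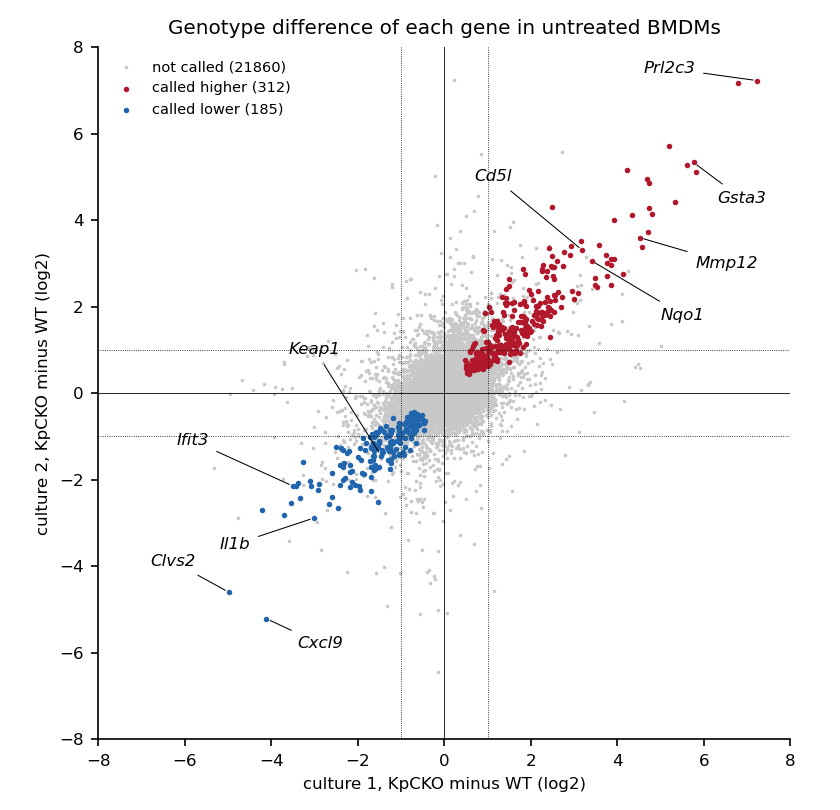
Difference between KpCKO and WT Con BMDMs (log2) in culture 1 on the horizontal axis and in culture 2 on the vertical axis, 1 point per gene tested, with the 312 genes called higher in red, the 185 called lower in blue and dotted lines at 2-fold. The called genes lie along the diagonal of the upper right and lower left quadrants, and other genes with large differences in 1 culture lie off it.

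The differences of the 2 cultures correlated at r = 0.537 over the genes tested, a description across genes, which are not independent. A rule that needs no estimate of spread, a difference above 2-fold in the same direction in both cultures, was met by 337 of 21670 genes in the higher direction (1.56%) and by 209 in the lower direction (0.964%), of which limma also called 207 and 99. The number of calls leaned on each array, since without WT 1, WT 2, KpCKO 1 or KpCKO 2 the 497 calls became 96, 119, 113 and 170. Fitted on the 4 Con arrays alone, limma called 0 genes at the adjusted threshold while 3439 had an unadjusted p under 0.05, and the smallest two-sided p an exact permutation of these 2 and 2 arrays allows is 0.333.

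The largest rise belonged to a pair of prolactin family genes, *Prl2c3* and *Prl2c5*. *Prl2c3*, which encodes a proliferin-like hormone, read −6.03 and −4.79 in WT and 1.20 and 2.43 in KpCKO. The arrays of the genotypes were far apart in both cultures, and the difference was 7.23 (SE 0.20), or 150-fold (adjusted p = 4.79e-05). Its other probes differed by 5.73 and 6.69. *Prl2c5* differed by 6.98, or 126-fold (adjusted p = 4.79e-05). The transcripts of these genes are near copies, so a signal may come from either one.

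*Gsta3*, a glutathione S-transferase, read −0.95 and −0.90 in WT and 4.81 and 4.43 in KpCKO. It rose 46.7-fold (difference 5.54, SE 0.50, adjusted p = 0.00418), and neither KpCKO array came near the WT arrays. *Il1f9*, a cytokine of the IL-1 family, read −6.32 and −8.18 in WT, where 1 array was above background, and −1.13 and −2.46 in KpCKO. It rose (adjusted p = 0.00443), and was at least 27.9-fold higher when the dim WT array was set to its lowest signal above background. *Heph*, a copper-containing ferroxidase that helps iron leave cells, read −6.04 and −5.71 in WT and −1.24 and −1.57 in KpCKO, a rise of 22.1-fold (adjusted p = 0.000462). *Mmp12*, the macrophage elastase, read 0.37 and 0.22 in WT and 4.88 and 3.81 in KpCKO. Its rise was 16.6-fold (difference 4.05, SE 0.35, adjusted p = 0.00363).

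Several of the largest rises started from no measurable signal in WT, where only a lower bound of the fold can be given. The bound sets the KpCKO mean against the lowest signal that was well above background on the WT arrays, or the probe's own signal where that was higher. *Tnfsf4*, the OX40 ligand that costimulates T cells, read −8.66 and −7.73 in WT and −3.05 and −2.45 in KpCKO, so that it was at least 18.2-fold higher (adjusted p = 0.000312). *Fam181b* was at least 12.7-fold higher (adjusted p = 0.000734) and *Klrb1a*, a C-type lectin-like receptor, at least 11.1-fold (adjusted p = 0.00889). *Ffar4*, the receptor for long-chain fatty acids known as GPR120, was at least 8.48-fold higher (adjusted p = 0.00198). *Eef1a2*, a translation elongation factor usually found in muscle and neurons, was above background on 1 WT array and was at least 25.8-fold higher (adjusted p = 0.000371). *Slc16a9*, a monocarboxylate transporter, rose 15.6-fold from a measured level (adjusted p = 0.00418), and the uncharacterized *A530064D06Rik* rose 11.4-fold (adjusted p = 0.0129).

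*Clvs2*, a lipid-binding protein of clathrin-coated vesicles, read −4.43 and −4.83 in WT and −9.41 and −9.44 in KpCKO. It was not above background on either KpCKO array and was at least 5.66-fold lower (adjusted p = 9.58e-05). *Cxcl9*, a chemokine induced by interferon γ, read −5.07 and −3.71 in WT and −9.18 and −8.92 in KpCKO and was at least 6.71-fold lower (adjusted p = 0.00229). *Fxyd2*, a subunit that regulates the sodium pump, read −1.10 and −0.12 in WT and −5.32 and −2.83 in KpCKO, a fall of 11.0-fold (adjusted p = 0.0118). For each of them the WT and KpCKO arrays did not overlap, which a call nearly requires. Of all genes tested 17.7% lay so in the lower direction.

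A pair of purine receptors fell. *P2ry13*, a receptor for ADP, read −1.94 and −1.66 in WT and −5.03 and −3.79 in KpCKO and fell 6.13-fold (difference −2.62, SE 0.36, adjusted p = 0.0167). Its neighbour *P2ry12*, the ADP receptor of platelets and microglia, read −2.93 and −2.72 in WT and −5.83 and −4.83 in KpCKO and fell 5.66-fold (adjusted p = 0.0305). *Pilrb1*, an activating immune receptor, fell 5.98-fold (adjusted p = 0.0163). Its signal may be shared with the close relative *Pilrb2*. Other large falls were those of *Ppm1n*, 5.65-fold (adjusted p = 0.0163), and *Adgb*, at least 4.63-fold with 1 KpCKO array above background (adjusted p = 0.00506). *Adamts12*, also above background on 1 KpCKO array, fell at its brightest probe by at least 5.04-fold (adjusted p = 0.0262), but its other probe differed by 0.12.

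**Figure D2:**
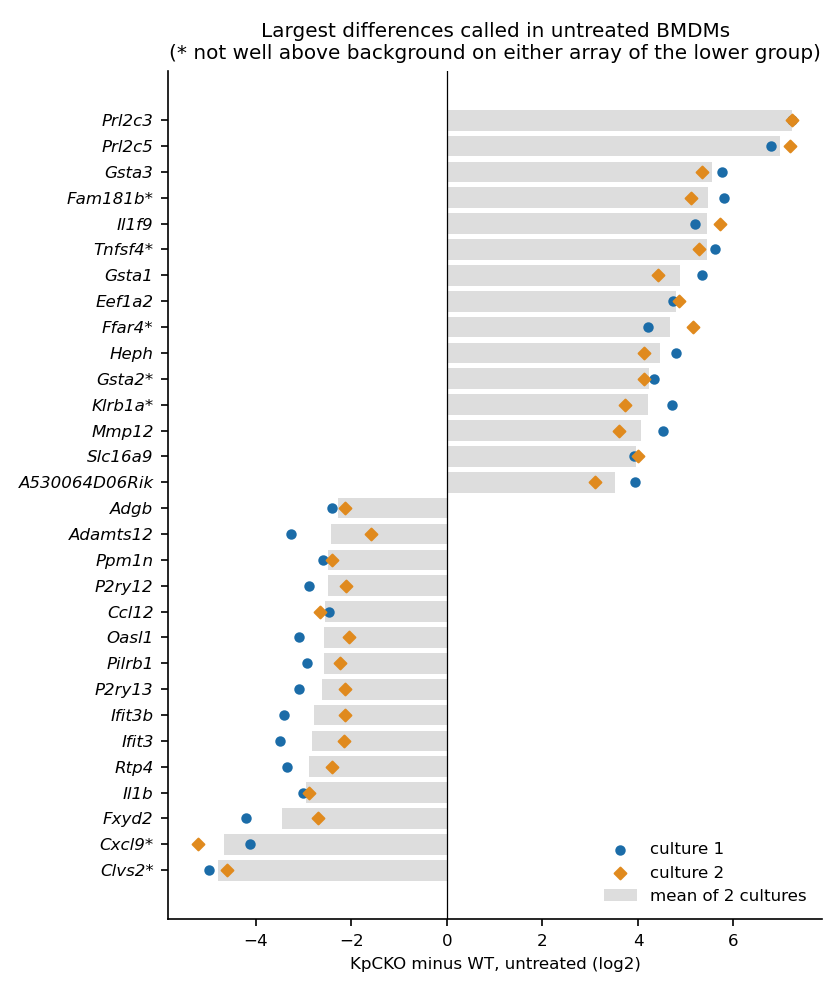
Log2 difference between KpCKO and WT Con BMDMs of 15 strongly risen and 15 strongly fallen genes, 1 row per gene, with a blue circle for culture 1, an orange diamond for culture 2 and a grey bar from 0 to their mean. An asterisk marks genes whose lower group had no array well above background, where the length of the bar is no measured fold. The circle and the diamond of every row lie on the same side of 0.

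Of the 30 risen and fallen genes of the plot, 15 stayed past the threshold without each Con array in turn.

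Called genes of antioxidant defence and detoxification were all higher in KpCKO. Over 6 lists of redox and detoxifying genes, 37 of 101 measured members were higher in KpCKO Con and 0 were lower, against 1.4% and 0.827% of all genes tested. The median difference of the 101 was 0.27, and 81 lay above 0. The lists were chosen with earlier results of these data known, so their counts describe the data and are no independent evidence. The 37 calls became 11 without WT 1, 15 without WT 2, 12 without KpCKO 1 and 18 without KpCKO 2.

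Glutathione synthesis and transport had 7 of 18 members higher, with a median difference of 0.81 (0.85 in culture 1 and 0.60 in culture 2). *Slc7a11*, the xCT subunit that imports the cystine used for glutathione, read −3.23 and −3.18 in WT and 0.61 and −0.68 in KpCKO and rose 9.01-fold (difference 3.17, SE 0.33, adjusted p = 0.00656). *Gclm*, the modifier subunit of glutamate-cysteine ligase, read 0.95 and 0.89 in WT and 3.22 and 2.56 in KpCKO, a rise of 3.91-fold (adjusted p = 0.00418). *Gclc*, the catalytic subunit of that rate-limiting enzyme, read 2.41 and 1.90 in WT and 4.09 and 3.01 in KpCKO. It rose less, 2.63-fold (adjusted p = 0.0258). Glutathione synthetase, *Gss*, rose 2.70-fold (adjusted p = 0.0195), the reductase *Gsr* rose 2.62-fold (adjusted p = 0.0146), and *Ggt5*, which cleaves γ-glutamyl compounds, rose 3.38-fold (adjusted p = 0.0129). Import, both steps of synthesis and recycling were each represented among the called genes.

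Glutathione S-transferases, which join glutathione to electrophiles, had 10 of 19 members higher, with a median of 0.79. *Gsta1* read −5.70 and −4.99 in WT and −0.36 and −0.57 in KpCKO and rose 29.4-fold (adjusted p = 0.000371). *Gsta2*, its near copy, was not above background in WT and was at least 5.25-fold higher (adjusted p = 0.00178), and *Gsta4* rose 10.9-fold (adjusted p = 0.0146). The signals of *Gsta1* and *Gsta2* may be shared. *Mgst2*, a membrane-bound transferase, read 0.41 and 1.33 in WT and 2.67 and 4.15 in KpCKO and rose 5.81-fold (adjusted p = 0.0024). *Gstm3* rose 2.80-fold (adjusted p = 0.00276).

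The thioredoxin and peroxiredoxin system, which reduces protein disulfides and peroxides, had 4 of 14 members higher and a median of 0.29. *Srxn1*, sulfiredoxin, which repairs overoxidized peroxiredoxins, read 4.11 and 3.98 in WT and 6.43 and 5.78 in KpCKO and rose 4.16-fold (difference 2.06, SE 0.22, adjusted p = 0.00771). *Prdx6* rose 3.24-fold (adjusted p = 0.00563), *Prdx1* 2.52-fold (adjusted p = 0.0128), and thioredoxin reductase, *Txnrd1*, 2.43-fold (adjusted p = 0.0366). Thioredoxin itself, *Txn1*, read 5.14 and 5.00 in WT and 5.91 and 5.53 in KpCKO and missed the threshold (difference 0.65, adjusted p = 0.0764).

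The list for the supply of NADPH, the reducing power of both systems, had 3 of 10 members higher and a median of 0.26. Malic enzyme, *Me1*, read −0.87 and −0.97 in WT and 0.96 and 0.66 in KpCKO and rose 3.31-fold (difference 1.73, SE 0.11, adjusted p = 0.00119). *Taldo1* and *Tkt*, of the non-oxidative branch of the pentose phosphate pathway, rose 1.82-fold (adjusted p = 0.0146) and 1.46-fold (adjusted p = 0.0492). Their reactions do not themselves make NADPH. The call of *Tkt* was lost with quantile normalization and with the authors' normalized values. The enzymes of the oxidative branch did not pass, with differences of 0.21 for *G6pdx* and 0.88 for *Pgd* (adjusted p = 0.0733).

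Quinone and carbonyl detoxifying enzymes had 9 of 24 members higher and a median of 0.21. *Nqo1*, which reduces quinones and is a widely used readout of Nrf2, read −2.11 and −1.58 in WT and 1.29 and 1.48 in KpCKO. It rose 9.38-fold with little spread (difference 3.23, SE 0.11, adjusted p = 6.88e-05). The alcohol dehydrogenase *Adh7*, above background on 1 WT array, rose 5.09-fold (adjusted p = 0.00618), the carbonyl reductase *Cbr3* rose 3.5-fold (adjusted p = 0.00305) and *Ptgr1*, which reduces alkenals, rose 3.1-fold (adjusted p = 0.00358). *Aldh3a1*, an aldehyde dehydrogenase, was not above background in WT and was at least 1.68-fold higher (adjusted p = 0.033).

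Heme and iron handling had 4 of 16 members higher, and the median of 0.06 was close to that of all genes. *Blvrb*, biliverdin reductase B, rose 2.32-fold (adjusted p = 0.0153), the phagosomal metal transporter *Slc11a1* rose 2.61-fold (adjusted p = 0.0284), and the transferrin receptor *Tfrc* rose 2.16-fold (adjusted p = 0.0442). *Abcb6*, a porphyrin transporter, rose 1.49-fold (adjusted p = 0.0411). *Hmox1*, heme oxygenase 1 and a textbook Nrf2 target, read 6.61 and 5.47 in WT and 6.67 and 5.19 in KpCKO. The cultures differed from each other and the genotypes overlapped (difference −0.11, adjusted p = 0.955).

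**Figure D3:**
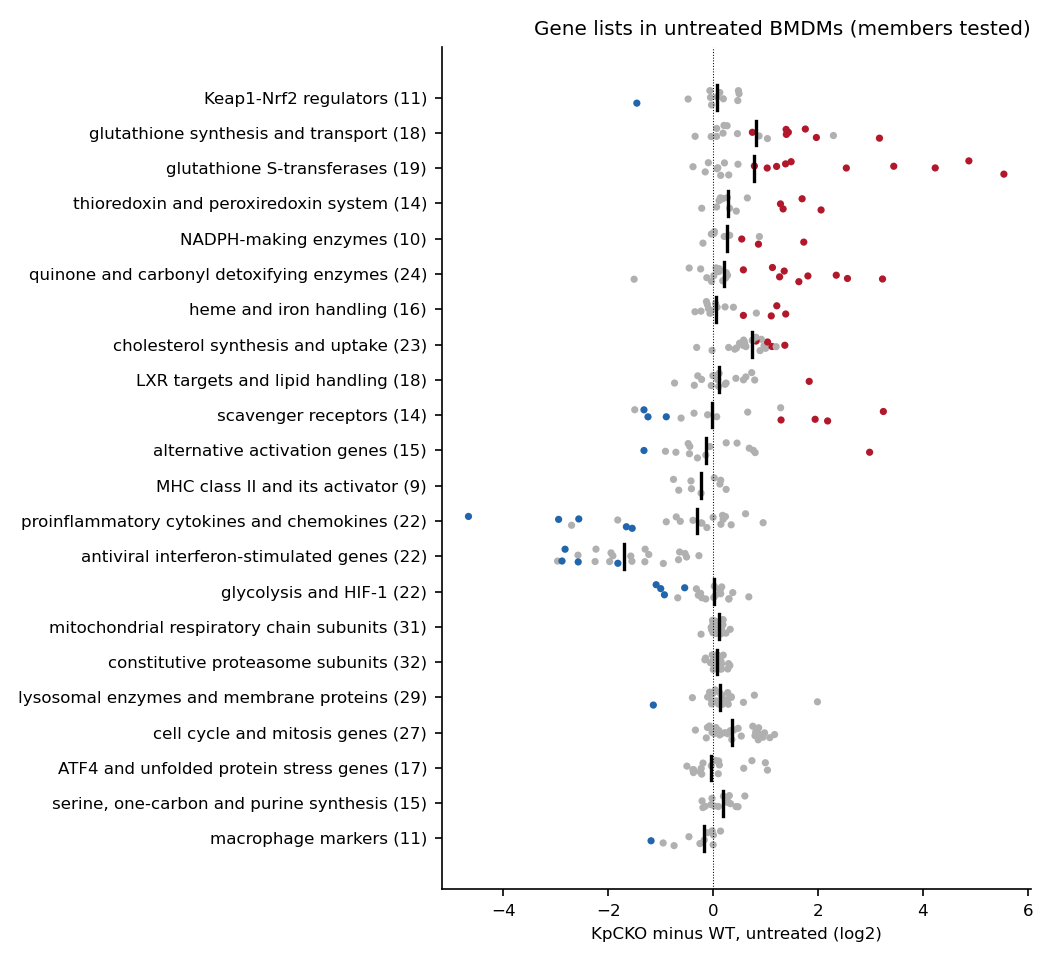
Log2 difference between KpCKO and WT Con BMDMs for each tested member of 22 gene lists, 1 row per list with the number of members in brackets, 1 point per gene and a black bar at the median. Red points were called higher, blue points lower and grey points neither. The redox and detoxifying lists hold red points and no blue points, and the antiviral interferon list lies wholly below 0.

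To show what the promoters of risen genes look like, 39-base stretches around a match to the core of the antioxidant response element are printed for the 6 genes that the naming rule picked. The letters searched were TGACNNNGC and TGAGNNNGC, on both strands, in the 300 bases from 250 before to 50 after the transcription start in the RefSeq table of build GRCm38.p6. A longer form, the first with an A after it, overlaps it and was counted separately. Capitals mark the match, and each stretch runs 5′ to 3′ on the strand of its gene.
*Gsta3*, chr1:21240449-21240487, plus strand, match at −121 from the start: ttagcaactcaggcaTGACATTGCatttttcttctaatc
*Fam181b*, chr7:93079739-93079777, plus strand, match at −125 from the start: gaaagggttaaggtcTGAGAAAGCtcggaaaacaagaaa
*Il1f9*, chr2:24186295-24186333, plus strand, match at −166 from the start: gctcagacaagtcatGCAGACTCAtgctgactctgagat
*Ffar4*, chr19:38097075-38097113, plus strand, match at 11 from the start: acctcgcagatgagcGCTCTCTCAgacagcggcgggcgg
*Klrb1a*, chr6:128622954-128622992, minus strand, match at −43 from the start: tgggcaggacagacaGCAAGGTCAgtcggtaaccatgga
*Mmp12*, chr9:7344250-7344288, plus strand, match at −132 from the start: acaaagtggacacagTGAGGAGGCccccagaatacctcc

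*Gsta3* alone of these 6 holds the longer form. In *Il1f9*, *Ffar4* and *Klrb1a* the letters lie on the opposite strand, so they read as the reverse complement above. Stretches of *Srxn1*, *Me1*, *Prdx1* and *Txnrd1*, enzymes of the redox lists chosen after their values were seen, are shown beside them. *Srxn1* and *Prdx1* hold further matches that are not printed.
*Srxn1*, chr2:152105464-152105502, plus strand, match at −45 from the start: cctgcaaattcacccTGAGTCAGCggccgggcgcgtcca
*Me1*, chr9:86695897-86695935, minus strand, match at −6 from the start: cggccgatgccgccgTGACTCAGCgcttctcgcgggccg
*Prdx1*, chr4:116685451-116685489, plus strand, match at −133 from the start: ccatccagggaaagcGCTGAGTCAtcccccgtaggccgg
*Txnrd1*, chr10:82859099-82859137, plus strand, match at −92 from the start: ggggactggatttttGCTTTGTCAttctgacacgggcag

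The letters were common in promoters at large. They were found in 80 of the 185 higher genes with a promoter in the table (43.2%) and in 36 of 100 lower genes (36%). The share was 4067 of 11670 tested genes (34.8%) and 8314 of all 27025 genes with a promoter (30.8%). Counted per promoter window and not per gene, 27.8% of 32851 held them. The longer form was found in 4.32% of the higher, 2% of the lower and 3.20% of the tested genes. Of the 37 risen redox genes, 29 had a promoter in the table and 12 of them (41.4%) held a match. A match is a description of letters and not a bound site, and *Nqo1* has no match in this window.

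Macrophage uptake receptors moved in both directions, with 4 of 14 scavenger receptors higher, 3 lower and a median of −0.02. Of all genes tested, 1.4% were called higher and 0.827% lower. *Cd5l*, a secreted scavenger-family protein of tissue macrophages that holds back apoptosis, read 4.88 and 4.33 in WT and 8.07 and 7.63 in KpCKO and rose 9.49-fold (difference 3.25, SE 0.12, adjusted p = 9.58e-05). *Cd36*, the receptor for oxidized LDL and fatty acids, read 3.37 and 2.80 in WT and 5.78 and 4.76 in KpCKO and rose 4.54-fold (adjusted p = 0.00258). *Marco*, which binds bacteria and particles, read 1.14 and 2.04 in WT and 3.02 and 4.05 in KpCKO and rose 3.85-fold (adjusted p = 0.0157). *Colec12* rose 2.45-fold (adjusted p = 0.00771).

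Other receptors of the same list fell. *Mrc1*, the mannose receptor, read 2.09 and 1.85 in WT and 0.91 and 0.38 in KpCKO, a difference of −1.32 (adjusted p = 0.00774). *Msr1*, scavenger receptor A, read 3.45 and 3.47 in WT and 2.40 and 2.03 in KpCKO, a difference of −1.24 (adjusted p = 0.0437). *Cxcl16*, a membrane chemokine that also binds oxidized lipoproteins, differed by −0.89 (adjusted p = 0.0401), and it was named after its values were seen. The WT and KpCKO arrays of these 3 genes did not overlap. A call nearly requires this, and 17.7% of all genes tested lay so in the lower direction.

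Genes of alternative activation had 1 of 15 members higher and 1 lower, against 1.4% and 0.827% of all genes tested, with a median of −0.14. The higher gene was *Egr2*, a transcription factor induced by IL-4 and M-CSF, which read 0.37 and 1.11 in WT and 3.85 and 3.60 in KpCKO and rose 7.91-fold (adjusted p = 0.0325). The lower gene was *Mrc1*.

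Cholesterol synthesis and uptake had 4 of 23 members higher, against 1.4% of all genes tested, 0 lower and a median difference of 0.74. Of the members, 91.3% lay above 0 in both cultures, as did 32.4% of all genes tested. *Hmgcs1*, a synthase early in the pathway, read 3.46 and 3.49 in WT and 4.92 and 4.76 in KpCKO and rose 2.58-fold (adjusted p = 0.0146). Squalene synthase, *Fdft1*, rose 2.17-fold at its brightest probe (adjusted p = 0.041), where its other probe differed by 0.46. With the mean of a gene's probes the call of *Fdft1* was lost and the list had 1 call. *Insig1*, which retains the sterol sensor in the endoplasmic reticulum, rose 1.76-fold (adjusted p = 0.0412). The 4 calls became 0 without WT 1, WT 2 or KpCKO 1 and 2 without KpCKO 2. Among LXR targets and lipid handling genes 1 of 18 was higher, with a median of 0.11, and it was *Scd2*, a fatty acid desaturase that rose 3.56-fold (adjusted p = 0.018).

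All 22 measured antiviral interferon-stimulated genes lay below 0 in both cultures, as did 32.2% of all genes tested, and 4 of them passed the test against 0.827% of all genes. The median difference of the list was −1.69, with −2.01 in culture 1 and −1.37 in culture 2. *Rtp4*, an interferon-induced chaperone protein, read 4.93 and 4.80 in WT and 1.58 and 2.38 in KpCKO and fell 7.38-fold (difference −2.88, SE 0.50, adjusted p = 0.0406). *Ifit3*, which binds viral RNA together with its relatives, read 1.37 and 2.12 in WT and −2.13 and −0.03 in KpCKO and fell 7.09-fold (adjusted p = 0.0406). Its near copy *Ifit3b*, which is not in the list, fell 6.87-fold (adjusted p = 0.0375), and a signal shared by these copies is possible. The oligoadenylate synthase-like genes *Oasl1* and *Oasl2* fell 5.96-fold (adjusted p = 0.0198) and 3.53-fold (adjusted p = 0.0492).

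Other members of the interferon list missed the threshold although their differences could be large. *Ifi44* differed by −2.97 (adjusted p = 0.0722) and *Ifit1*, a sensor of viral RNA caps, by −2.58 (adjusted p = 0.0511), both named after their values were seen. The 4 calls became 0 without WT 1, WT 2 or KpCKO 1 1 without KpCKO 2, 0 without the culture block or with the Con and M1 arrays only, 1 with normexp or with no filter, and 9 without either KpCKO M1 array. The KpCKO arrays differed more from each other than the WT arrays did for *Rtp4*, *Ifit3* and *Oasl2*.

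The list of proinflammatory cytokines and chemokines had 5 of 22 members lower, against 0.827% of all genes tested, 0 higher and a median of −0.31. *Il1f9*, the risen cytokine of the IL-1 family described above, is not in this list. *Il1b*, interleukin-1β, read 0.85 and 2.76 in WT and −2.16 and −0.12 in KpCKO. The level was higher in culture 2 for both genotypes, and within each culture KpCKO was lower by a similar amount, a fall of 7.72-fold (difference −2.95, SE 0.23, adjusted p = 0.0024). The monocyte chemokine *Ccl12*, above background on 1 KpCKO array, was at least 5.61-fold lower (adjusted p = 0.0376), the neutrophil chemokine *Cxcl1* 3.15-fold (adjusted p = 0.0397) and *Ccl4* 2.92-fold (adjusted p = 0.0462), and *Cxcl9* is the gene described above. The 5 calls became 2 without any 1 of the Con arrays. MHC class II genes and their activator gave no call among 9 members, where 2.22% of all genes tested were called. Their median was −0.23, with −0.31 in culture 1 and 0.12 in culture 2.

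**Figure D4:**
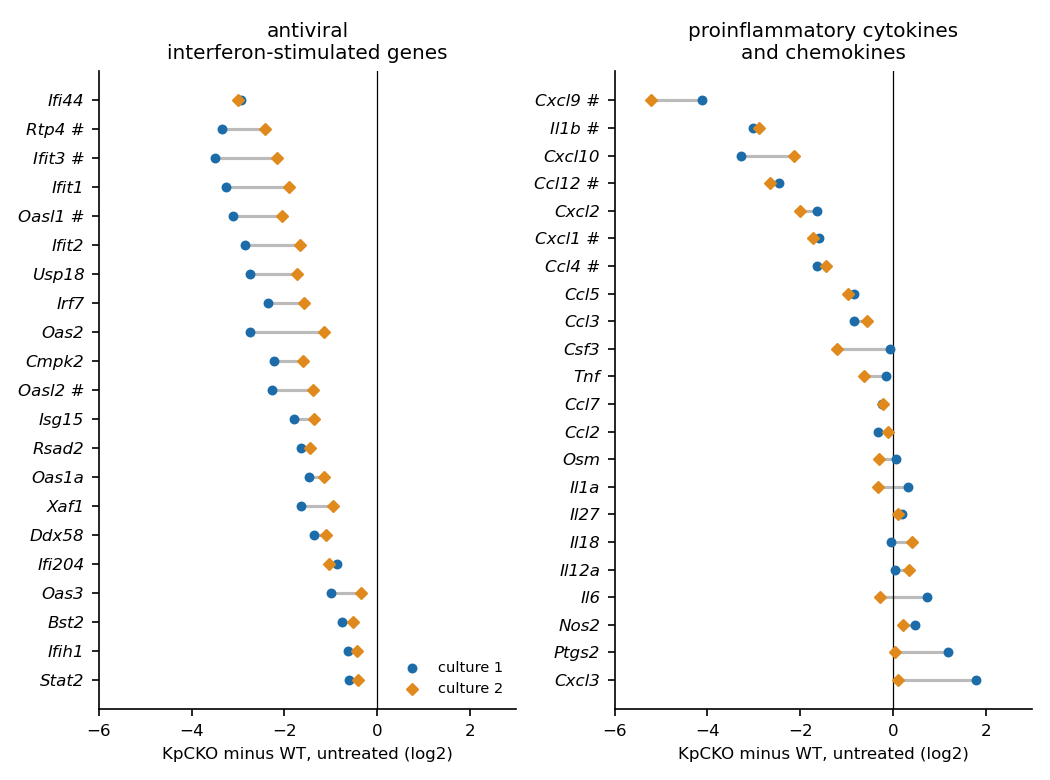
Log2 difference between KpCKO and WT Con BMDMs, with the tested antiviral interferon-stimulated genes but 1 on the left. The tested members of the proinflammatory cytokine and chemokine list, which does not hold *Il1f9*, are on the right. A blue circle stands for culture 1, an orange diamond for culture 2 and # for genes called by limma. The interferon genes shown lie below 0 in both cultures, and the cytokine genes lie on both sides of 0. *Cxcl9* was not above background in KpCKO, so that its place among the cytokine genes was not measured.

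Glycolysis and HIF-1 genes had 4 of 22 members lower, against 0.827% of all genes tested, and a median of 0.02. In both cultures 9 members lay above 0 and 9 below. *Slc16a3*, the transporter that exports lactate, read 4.36 and 4.47 in WT and 3.34 and 3.49 in KpCKO and fell 2.0-fold (difference −1.0, SE 0.10, adjusted p = 0.00615). *Pdk1*, a kinase that inhibits pyruvate dehydrogenase, fell 1.91-fold (adjusted p = 0.0118). *Egln3*, a HIF prolyl hydroxylase, fell 2.13-fold (adjusted p = 0.0366) and phosphofructokinase, *Pfkl*, fell 1.46-fold (adjusted p = 0.0495). The call of *Pfkl* was lost with the authors' normalized values and with the mean of a gene's probes. The 4 calls became 1 without WT 2 and 0 without any other 1 of the Con arrays. Lysosomal genes had 1 of 29 members lower, the protease *Ctsc*, which fell 2.21-fold (adjusted p = 0.0238), with a median of 0.13.

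Several other programmes gave no call in either direction, where 2.22% of all genes tested were called. Serine, one-carbon and purine synthesis had 15 measured members with a median of 0.20, ATF4 and unfolded protein stress genes had 17 with a median of −0.04, and constitutive proteasome subunits had 32 with a median of 0.07. Respiratory chain subunits had 31 members with a median of 0.11, and cell cycle genes had 27 with a median of 0.36, which differed between culture 1 (0.13) and culture 2 (0.47). A missed threshold with 2 mice per genotype does not show equal levels.

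Markers of cell types were summarised by their summed signal on a linear scale, in units of the 75th percentile. In bulk RNA fewer cells of a type and less RNA per cell cannot be told apart. All 11 measured macrophage markers were above background in both genotypes, and their sum was 821 and 851 in WT and 681 and 684 in KpCKO. The sum includes *Cd14* and *Lyz2*, the locus that carries the Cre, which differed by −0.95 and was not called. The median difference of the list was −0.17. *Csf1r*, the M-CSF receptor, differed by −0.25 (adjusted p = 0.539) and *Adgre1*, F4/80, by −0.17, and the 1 macrophage marker called was *Cd14*, the co-receptor for LPS. *Cd14* read 6.23 and 6.48 in WT and 4.89 and 5.45 in KpCKO, a difference of −1.19 (SE 0.12, adjusted p = 0.00639). Neutrophil markers summed to 21.6 and 12.5 in WT and 25.0 and 18.1 in KpCKO, and *Elane* was at background. Of their 12 tested members 0 were called, against 2.22% of all genes tested.

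The sums of other lists serve to compare the genotypes within a list and not the lists with each other. T and NK cell markers summed to between 0.181 and 0.269, with *Cd3d* and *Gzmb* at background, dendritic cell markers to between 0.357 and 0.527, and mast cell and basophil markers to between 0.15 and 0.255. B cell markers summed to between 0.747 and 1.38, with *Ms4a1* and *Pax5* at background. Stromal markers summed to 36.4 and 42.7 in WT and 55.4 and 29.2 in KpCKO, with 0 of 9 called against 2.22% of all genes tested. Erythroid and megakaryocyte markers summed to 54.4 and 48.6 in WT and 18.8 and 20.6 in KpCKO, nearly all of it from *Pf4*, platelet factor 4, which macrophages also express. *Pf4* read 5.75 and 5.59 in WT and 4.21 and 4.35 in KpCKO (difference −1.39, adjusted p = 0.0132), and the erythropoietin receptor *Epor* fell 2.04-fold (adjusted p = 0.0295). The other 4 of the 6 tested members were not called, among them *Hba-a1* with a difference of 0.45 and *Itga2b* with 0.30, and the median of the list was 0.02. The part of these cell types in any result was not tested.

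Some neighbouring genes were called together. Among the higher genes, of which 243 had a symbol, 42 formed 19 runs of adjacent genes in the RefSeq gene order. Among the lower genes, of which 124 had a symbol, 20 formed 9 runs. How many runs other sets of as many genes would form was not tested. The runs include *Gsta4*, *Gsta1* and *Gsta2*, then *Gstm3*, *Gstm2* and *Gstm1*, the monoamine oxidases *Maoa* and *Maob*, and *Prdx6* beside *Tnfsf4*, named here after their values were seen. Lower runs include *P2ry13* and *P2ry12*, *Oasl2* and *Oasl1*, *Ccl12* and *Ccl8*, and *Pilra*, *Pilrb1* and *Pilrb2*. Several runs are duplicated families whose probes may bind more than 1 member.

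The genotype difference of the untreated cells was then followed into the stimulated cells of the same mice. Each stimulus had a slide of its own, so that stimulus and slide cannot be told apart, but both genotypes of a stimulus shared a slide. The M1 and M2 differences use no Con array, although they share the mice and the estimate of spread. Across the genes tested, 7.43% were higher and 8.59% lower in KpCKO among the M1 arrays, and 1.28% were higher and 0.644% lower among the M2 arrays. Of the 312 genes higher in Con, 232 (74.4%) were also higher in M1 and 205 (65.7%) in M2, and 167 were higher in both. None of them was called lower under either stimulus. Of the 312, 292 lay above 0 in M1 and 309 in M2. Their median difference was 1.26 in M1 and 1.28 in M2, where the medians of all genes were −0.09 and 0.02.

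Of the 185 genes lower in Con, 116 (62.7%) were lower in M1 and 81 (43.8%) in M2, and 62 in both, while 1 was called higher in M1. Below 0 lay 179 of them in M1 and 183 in M2, with medians of −0.88 and −0.91. *Nqo1* differed by 3.23 in Con, 3.5 in M1 and 3.52 in M2, and *Gsta3* by 5.54, 7.90 and 6.31. *Il1b* differed by −2.95 in Con, −2.96 in M1 and −2.99 in M2, although the level in WT M1, at 7.77 and 8.88, was far above that of Con. The antiviral list had a median of −1.41 in M1 with 8 members called lower and of −0.69 in M2 with 0. The cholesterol list had a median of 1.46 in M1 with 19 called higher and of 0.42 in M2 with 1. Proinflammatory genes had medians of −1.45 in M1 and −0.63 in M2, and glycolysis genes had 11 members called lower in M1 with a median of −0.46.

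**Figure D5:**
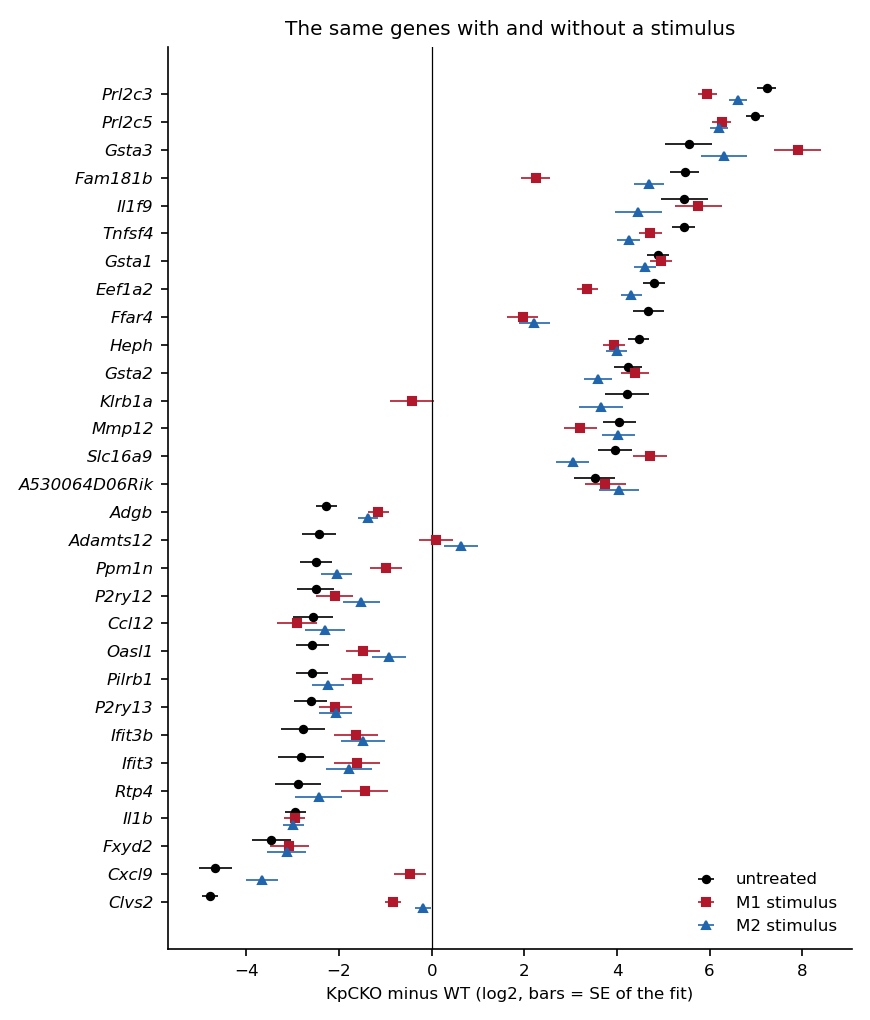
Log2 difference between KpCKO and WT BMDMs with its SE for the same 15 strongly risen and 15 strongly fallen genes of Con, shown for untreated cells (black circles), M1 (red squares) and M2 (blue triangles). The genes keep their side of 0 under both stimuli, except *Klrb1a* in M1 and *Adamts12* in both. *Clvs2*, at background under both stimuli, lies at −0.84 in M1 and −0.19 in M2, and *Cxcl9* lies close to 0 in M1.

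The difference between the genotype effects was tested directly. It passed for 16 genes between Con and M1 (0.0716%, with 3670 at an unadjusted p under 0.05) and for 2 genes between Con and M2 (0.00895%, with 452). *Bnipl*, *Cstdc2*, *Gimap5* and *Rfx6* of the 16 and *Olfr20* of the 2 were above background on no Con array. Their effect in Con was thus not measured, and they are named after their values were seen. *Clvs2*, the other gene of M2, was at background under both stimuli. Of the genes called in Con, 4 differed in M1, namely *Clvs2*, *Adh7*, *Ddit4l* and *Ptchd1*, and 1 in M2, which was *Clvs2*. *Ddit4l*, an inhibitor of mTOR signalling also called REDD2, differed by 1.21 in Con and 2.78 in M1, and *Ptchd1* by 0.90 and 2.84, both with an adjusted p of 0.0479 for the difference of effects. Leaving out arrays moved the first of these counts between 0 and 537, the highest without WT M1 1.

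Some genes called in Con showed no call under a stimulus, but the difference of effects between the conditions did not pass the test. *Cxcl9* stood at 8.99 and 9.31 in WT M1 and at 8.66 and 8.70 in KpCKO M1, a difference of −0.47 (adjusted p = 0.379), where Con differed by at least 6.71-fold (difference of effects, adjusted p = 0.056). *Marco* stood at 7.31 and 8.36 in WT M1 and at 7.16 and 8.17 in KpCKO M1 (difference −0.17, adjusted p = 0.677), and differed by 2.55 in M2 (adjusted p = 0.0064). *Klrb1a* stood at −5.10 and −5.00 in WT M1 and at −6.41 and −4.54 in KpCKO M1 (difference −0.43, adjusted p = 0.562), where its genotypes overlapped. The difference of effects between Con and M1 did not pass for *Marco* (adjusted p = 0.106) or *Klrb1a* (adjusted p = 0.0763). *Hmox1*, not called in Con, differed by −0.14 in M1 (adjusted p = 0.781) and −0.03 in M2 (adjusted p = 0.988).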

How the data were processed

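RNA of BMDMs was measured on 12 one-colour Agilent arrays, of which the 4 untreated arrays are described. Per the file headers, the authors used Agilent Feature Extraction 10.7.3.1, and the deposited spot intensities are background-subtracted and carry flags and median signals but no scaling across arrays. A deposited matrix of log2 values, normalized with GeneSpring per the methods, served as an alternative.

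Control spots and outlier spots were left out, repeat spots were averaged per probe, and the 75th percentile of the array was subtracted from each log2 intensity. Accessions matched 26682 of 41174 probes to 18213 symbols in the RefSeq gene table, used for names and gene order. The brightest probe stood for a gene, which gave 32301 genes or transcripts. Of these, 22357 passed the background flag on both arrays of some group and could be tested. Limma 3.58.1 in R 4.3.3 fitted the 6 groups and the culture with 5 residual and 1.92 prior degrees of freedom, at a Benjamini-Hochberg adjusted p of 0.05, and the script was tested on simulated data. All 12 arrays were kept in the fit so that the spread could be estimated. The number of arrays limits the precision. Where a fold is a lower bound, the dimmest probe past the background flag on each array, or the probe's own signal if higher, stood for the lower group. Python 3.11.15, pandas 2.3.3 and matplotlib 3.10.9 made the tables and plots.

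The pairing of arrays by culture comes from the methods and the series description. Deviations from the group means correlated between groups of the same culture at r between 0.162 and 0.597 in 15 pairs of groups. Con, M1 and M2 arrays each lay on a slide of their own, and genotypes were compared within a slide.

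The arrays, the 32 gene lists and the tests were chosen with earlier results of these data known. Genes named are the regulators, the 15 largest rises and 15 largest falls that passed limma and changed above 2-fold the same way in both cultures with both arrays of the higher group above background, and up to 6 called and 3 brightest members of each list. Promoter stretches are those of the 6 largest rises with a match. Others are said to be chosen after their values were seen. List genes with no matching probe, such as *Mx1*, *Cd68* and *H2-Eb1*, were not analysed here, and a few measured genes are not reported here. Alternatives were quantile and normexp normalization (offset 50, on median signals), the authors' matrix, other filters and probe rules, other sets of arrays, no culture term, mouse as a random block, limma's trend and robust options and the methods' test.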

Additional observations from a re-analysis of the deposited data

Results flagged for a closer look

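Genes are given here whose genotype effect (KpCKO less WT, log2) differed between Con and a stimulus by limma's test of that difference and that are also named in the report. *Adh7* read −6.88 and −6.18 in WT Con and −4.17 and −4.19 in KpCKO Con, and −7.42 and −6.96 in WT M1 and −1.80 and −1.22 in KpCKO M1. Its effect in M1 exceeded that in Con by 3.33 (SE 0.34, adjusted p = 0.0479), and its WT M1 arrays were not above background.

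*Clvs2* was above background on both WT Con arrays and on no M1 or M2 array of either genotype. Its effect in M1 less that in Con was 3.95 (SE 0.25, adjusted p = 0.0224), and in M2 less Con it was 4.6 (SE 0.25, adjusted p = 0.00799). Limma called *Clvs2* lower in M1 as well (difference −0.84, adjusted p = 0.0248), and not in M2 (difference −0.19, adjusted p = 0.702). These differences of effects set a fall in Con beside values at background, where no genotype difference can be measured, so the M1 call is no measured fall. The cause of these differences was not tested, and each stimulus has a slide of its own.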

How the results depend on the processing

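Without the replicate block, that is without pairing the arrays by culture, the 497 genes called in Con became 191, with 147 higher and 44 lower, and 43 of the 80 named called genes passed. The 497 became 170 with normexp, 260 with no filter, 161 with Con and M1 arrays only and 0 with the 4 Con arrays only, and the methods' test gave 1618 unadjusted and 0 after Benjamini-Hochberg. Leaving out 1 array gave 96 to 464. The 546 genes above 2-fold in both cultures became 261 with normexp, 972 by the mean change, and 1174 and 1316 with 1 culture left out.

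The 16 genes whose effect differed in M1 became 2 with quantile normalization, 0 with normexp, 47 with normexp without WT M2 2, 25 with the authors' matrix, 0 with no filter, 55 with a floor, 1 with the mean of probes, 0 with Con and M1 only, 119 with trend and robust options, 1 with mouse as a random block and 0 to 537 leaving out 1 array. The 2 genes of M2 became 0 with normexp, 1 with normexp without WT M2 2, 1 with no filter, 0 with the filter on all 4 Con arrays, 0 with a floor, 0 with Con and M2 only, 0 with trend and robust options and 0 to 2 leaving out 1 array. Settings with 1 stimulated array, or Con and M1 alone, and normexp without WT M2 2 were chosen after seeing the data.

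Of the 80 named called genes, 24 passed without each Con array and none changed sign over 27 settings, and 15 were lost only in the fit on the 4 Con arrays. Of the 32 lists, 28 had a median that moved by more than its SD between cultures under some setting. The median of the MHC class II list, −0.23, turned to 0.04 with normexp and 0.18 without KpCKO Con 1. Called members ranged from 0 to 40 of the redox lists, 0 to 9 of the antiviral list, 0 to 6 of the cytokine list, 0 to 10 of the cholesterol list and 0 to 5 of the glycolysis list. Without the culture block they were 23, 0, 1, 1 and 1. The median of all genes stayed between −0.02 and 0.02. The cause of these changes in count was not tested, apart from the fewer arrays in some fits. Signal near background limits folds, and 2 mice per genotype limit what can be called.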
